A study of Arabidopsis thaliana with 8 samples.

Results

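Class A heat shock factors are the activating branch of the plant heat shock factor family, and 10 of them were followed here in rosette leaves of Arabidopsis thaliana: HSFA1A (AT4G17750), HSFA1B (AT5G16820), HSFA1D (AT1G32330), HSFA1E (AT3G02990), HSFA2 (AT2G26150), HSFA3 (AT5G03720), HSFA4A (AT4G18880), HSFA4C (AT5G45710), HSFA7A (AT3G51910) and HSFA8 (AT1G67970). They were picked by locus identifier, with earlier results of these data known, and are 10 of the 34354 rows of the expression table. RNA-seq was performed on the third and the fourth rosette leaves, which had begun to yellow at the margin, from 3-week-old plants on soil at 22 °C. All plants were in the Col-0 background, and 4 groups of 2 libraries each were compared. The wild type and the pif4-2 pif5-3 double mutant, which carries mutant alleles of the growth-promoting transcription factors PIF4 and PIF5, were each sampled as mock and after 5 h at 42 °C followed by 3 days of recovery. The 2 libraries of a group are biological replicates per the series' design text, and the number of plants in each is not stated in the sources used here. The heated plants were sampled after recovery, so the values describe leaves days after the stress and not during it.

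A heat shock factor binds heat shock elements, arrays of the short unit nGAAn in alternating orientation, in the promoters of chaperone genes. The HSFA1 proteins are present before stress, are held inactive by HSP70 and HSP90, and switch on the early response when these chaperones are drawn off by unfolded proteins. HSFA2, HSFA3 and HSFA7A are induced downstream of HSFA1 and prolong or amplify the response, with HSFA2 known for its part in heat memory. HSFA4A and HSFA8 are linked to oxidative signals, and class B factors such as HSFB1 mainly repress.

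The stretch of 300 bases immediately upstream of the annotated gene start was searched on both strands in 27443 protein-coding genes of TAIR10.1, the RefSeq assembly at hand. The submitters name TAIR10 as their build, and the deposited table itself has no coordinates. An array of 2 heat shock units (GAANNTTC or TTCNNGAA) was present in 19.3% of all these windows and in 4 of the 10 factors, HSFA1E, HSFA2, HSFA4A and HSFA7A. An array of 3 units (GAANNTTC followed by NNGAA, or TTCNNGAA followed by NNTTC, which contains 2 overlapping 2-unit matches) was present in 0.485% of all windows and in 2 of the 10, HSFA2 and HSFA7A. HSFA7A carried it at 2 places, 192 and 142 bases upstream, and HSFA2 at 1 place, 88 bases upstream, with a separate 2-unit match at 33 bases. The G-box CACGTG, a motif that PIF proteins are known to bind, was present in 7.09% of all windows and in HSFA1E and HSFA2, where it lay 169 and 56 bases upstream. The related E-box CACATG or CATGTG was found in 13.1% of all windows and in 0 of the 10. The core of the dehydration-responsive element, bound by DREB2 proteins (ACCGAC or GCCGAC and their reverse complements), was found in 8.24% of all windows and in HSFA1A. Matches of letters describe these windows and are not measured binding sites. The windows of 3 genes follow, HSFA2 and HSFA7A because they hold the 3-unit arrays and HSFA8 because it is the most abundant factor and holds none of the searched motifs. They are written 5′ to 3′ on the strand of the gene, with the heat shock units in capitals, and lie at chr2:11135324-11135623 (plus strand), chr3:19264841-19265140 (plus strand) and chr1:25486513-25486812 (minus strand) in TAIR10.1.
HSFA2: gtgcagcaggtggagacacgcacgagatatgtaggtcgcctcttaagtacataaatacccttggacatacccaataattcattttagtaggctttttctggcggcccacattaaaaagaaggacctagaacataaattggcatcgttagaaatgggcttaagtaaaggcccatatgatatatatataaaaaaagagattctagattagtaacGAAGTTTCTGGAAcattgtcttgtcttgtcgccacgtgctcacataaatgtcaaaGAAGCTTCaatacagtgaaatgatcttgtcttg
HSFA7A: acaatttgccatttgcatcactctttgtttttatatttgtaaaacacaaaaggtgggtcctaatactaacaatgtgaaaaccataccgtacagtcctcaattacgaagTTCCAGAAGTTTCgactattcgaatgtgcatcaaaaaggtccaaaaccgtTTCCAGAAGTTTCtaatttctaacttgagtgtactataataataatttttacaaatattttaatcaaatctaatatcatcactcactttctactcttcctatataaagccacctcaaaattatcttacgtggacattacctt
HSFA8: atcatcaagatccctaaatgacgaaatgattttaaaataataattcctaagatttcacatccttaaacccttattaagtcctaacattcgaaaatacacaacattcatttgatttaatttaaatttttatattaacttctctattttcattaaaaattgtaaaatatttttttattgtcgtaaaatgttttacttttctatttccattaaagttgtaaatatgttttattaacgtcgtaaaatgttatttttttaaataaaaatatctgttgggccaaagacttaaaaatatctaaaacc

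**Figure D1:**
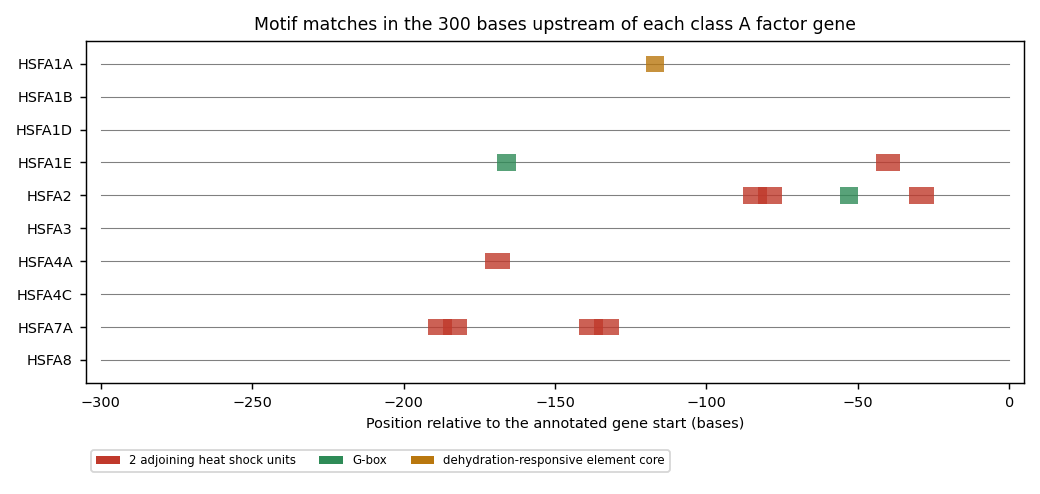
Motif matches in the 300 bases upstream of each of the 10 genes; the horizontal axis is the distance from the annotated gene start in bases, and each coloured box is 1 match on either strand. Overlapping red boxes are 3-unit arrays, seen at 88 bases in HSFA2 and at 192 and 142 bases in HSFA7A, and 5 of the 10 lines carry no match.

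Depth, recovered from the steps of the deposited FPKM (fragments scaled by gene length and by the mapped total of the library), was 16852240 to 29535916 reads per library. PIF4 averaged 131 ± 0.0201 FPKM (SD, n = 2) without heat and 99.0 ± 2.57 with heat in wild-type leaves, against 33.6 ± 0.0192 and 24.7 ± 1.28 in mutant leaves. PIF5 was at 63.2 and 66.4 FPKM in the wild-type mock libraries and at 5.60 and 4.70 FPKM in the mutant mock libraries, so both genes were lower in every library labelled as mutant. The flower genes AG and AP1 summed to at most 0.329 FPKM in a library, and the seed genes CRA1 and CRC were listed at 0. The sum of 4 mesophyll markers was 38659 to 40208 FPKM in wild-type mock and 36972 to 38805 after heat, with 2 higher and 2 lower. In the mutant it was 37645 to 38538 in mock and 45597 to 46164 after heat, and all 4 rose. LHCB1.3 made up most of these sums (mean 26245 FPKM in wild-type mock), so they mainly follow that gene. Of 3 phloem markers, SWEET11 was higher in the mutant in both treatments and the other 2 were not called there. Heat in the wild type called 1 phloem marker higher and 1 lower. Of 3 guard cell markers, KAT1 rose with heat in the wild type and was lower in the heated mutant than in the heated wild type. The other 2 guard cell markers were called in neither comparison. All 4 epidermis markers (ATML1, PDF2, FDH and CER5) fell after heat in both genotypes, their sum going from 179 to 180 FPKM in wild-type mock to 128 to 133 after heat, and from 146 to 147 in mutant mock to 114 to 119 after heat. In whole leaves, fewer cells of a type and less RNA per cell cannot be told apart, and the part of such shifts in the values below was not tested.

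Levels of the 10 factors differed widely, and because FPKM are per length they can be set side by side. HSFA8 was the most abundant in every library, with a lowest, median and highest of 29.0, 37.4 and 44.8 FPKM over the 8 libraries, and it made up 34.6% to 40.5% of the summed FPKM of the 10. HSFA4A (17.3 to 25.5 FPKM) and HSFA1B (14.0 to 18.3 FPKM) came next, with ranges that overlapped each other but not HSFA8. HSFA4C (6.17 to 7.80 FPKM) and HSFA1D (4.67 to 5.99 FPKM) followed without overlap. HSFA1A (2.76 to 3.85 FPKM), HSFA3 (2.12 to 4.51 FPKM), HSFA1E (2.17 to 3.49 FPKM), HSFA7A (1.10 to 2.72 FPKM) and HSFA2 (0.758 to 4.21 FPKM) formed a low group, and each overlapped its neighbour in the order. The sum of the 10 in the wild type was 83.7 ± 0.316 FPKM without heat and 104 ± 1.14 with heat, and in the mutant 99.7 ± 1.39 and 108 ± 4.00 (SD, n = 2). Read support followed the levels, from 1158 to 1852 reads for HSFA8 in a library to 32 to 152 for HSFA2 and 32 to 93 for HSFA7A. All 10 passed the filter of 1 FPKM in at least 2 libraries; HSFA2 reached 1 FPKM in 4 of the 8 libraries and the other 9 factors in all 8.

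**Figure D2:**
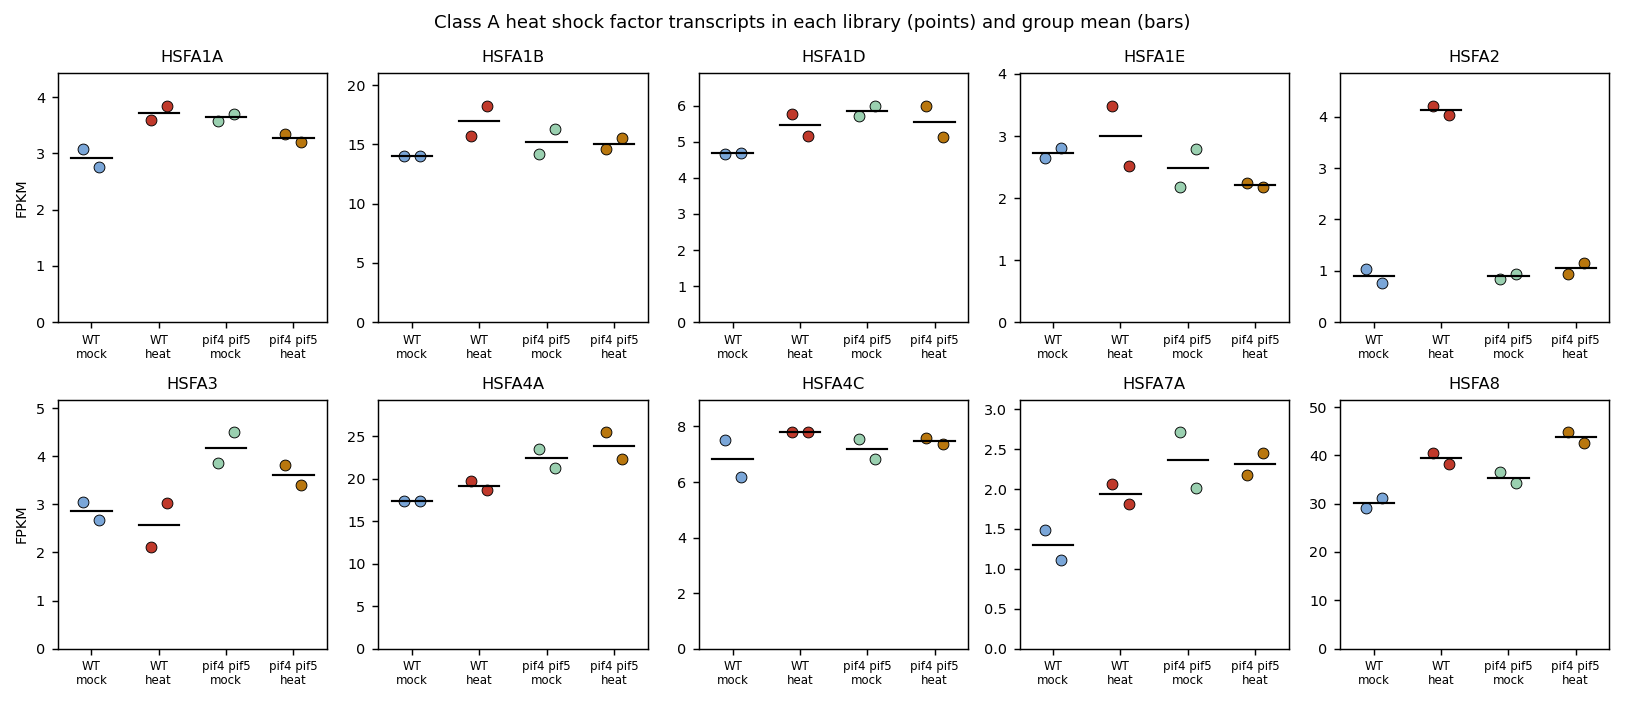
FPKM of each factor in each of the 8 libraries (points) with the group mean (bars); every vertical axis starts at 0 and has its own scale. The 2 wild-type heat libraries of HSFA2 stand at 4.21 and 4.03 FPKM, above the other 6, while HSFA8 and HSFA4A shift by small fractions of their level.

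Which factors still differed from mock in the wild type after recovery was examined first. HSFA2 was the factor that moved most: it stood at 1.04 and 0.758 FPKM in the mock libraries and at 4.21 and 4.03 FPKM after heat. The groups did not overlap, and the ratio of the means was 4.59. Changes are given below as differences of mean log2(FPKM + 1), a scale that understates changes of low genes, with the limma standard error and a p-value adjusted over all 16831 genes tested, called below 0.05. On it HSFA2 rose by 1.44 ± 0.13 (adjusted p = 3.4e-06). HSFA8 stood at 29.0 and 31.2 FPKM in mock and at 40.5 and 38.2 FPKM after heat, a rise of 0.38 ± 0.06 (adjusted p = 0.00032).

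HSFA1B, one of the resident activators, had 14.0 and 14.0 FPKM in mock and 15.7 and 18.3 FPKM after heat, a rise of 0.26 ± 0.09 (adjusted p = 0.035). That call was lost without replicate 2 of wild-type heat (0.15, adjusted p = 0.28) and without replicate 1 or 2 of wild-type mock (adjusted p = 0.11 and 0.092), and it passed in 10 of the 17 alternative analyses (adjusted p from 0.015 to 0.28). HSFA1B also overlaps AT5G16830, a syntaxin gene on the opposite strand, and the use of strand in counting is not given in the sources used here. In all, 3 of the 10 factors were called higher and 0 lower, against 38.4% of all genes called (21.5% higher and 16.9% lower), so the number of calls was near the background. The median change of the 10 was 0.22, and that of all genes tested was 0.02.

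The 7 factors that were not called in this comparison had smaller or less even differences. HSFA7A went from 1.48 and 1.10 FPKM in mock to 2.06 and 1.81 FPKM after heat, without overlap (0.36 ± 0.14, adjusted p = 0.067). HSFA1A went from 3.09 and 2.76 FPKM to 3.59 and 3.85 FPKM (0.27 ± 0.11, adjusted p = 0.069). HSFA1D, HSFA4C and HSFA4A had values of 0.19, 0.17 and 0.13, HSFA1E 0.09 and HSFA3 -0.12, with adjusted p from 0.18 to 0.64. The libraries of the 2 groups did not overlap for 8 of the 10, all higher after heat, where 68.9% of all genes did not overlap.

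Heat against mock within pif4 pif5 gave 1 call among the 10, HSFA8, against 20.2% of all genes called (6.28% higher and 13.9% lower). HSFA8 stood at 36.5 and 34.3 FPKM in mutant mock and at 44.8 and 42.7 FPKM after heat, and it rose by 0.30 ± 0.06 (adjusted p = 0.0055). Without replicate 2 of mutant mock it was at 0.26 with an adjusted p of 0.052, and its adjusted p over all alternatives was 0.0012 to 0.052. HSFA2 had 0.841 and 0.946 FPKM in mutant mock and 0.948 and 1.16 FPKM after heat, groups that nearly touched, with a ratio of means of 1.18. Its change of 0.12 ± 0.13 was not called (adjusted p = 0.57), and the 95% interval ran from -0.17 to 0.40, which lies below the wild-type change. The other 8 factors had values from -0.17 (HSFA3) to 0.09 (HSFA4A), with adjusted p from 0.43 to 0.95, and the median of the 10 was -0.01 against -0.06 for all genes. The libraries did not overlap for 4 of the 10, 2 higher and 2 lower after heat, where 61.6% of all genes did not overlap.

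**Figure D3:**
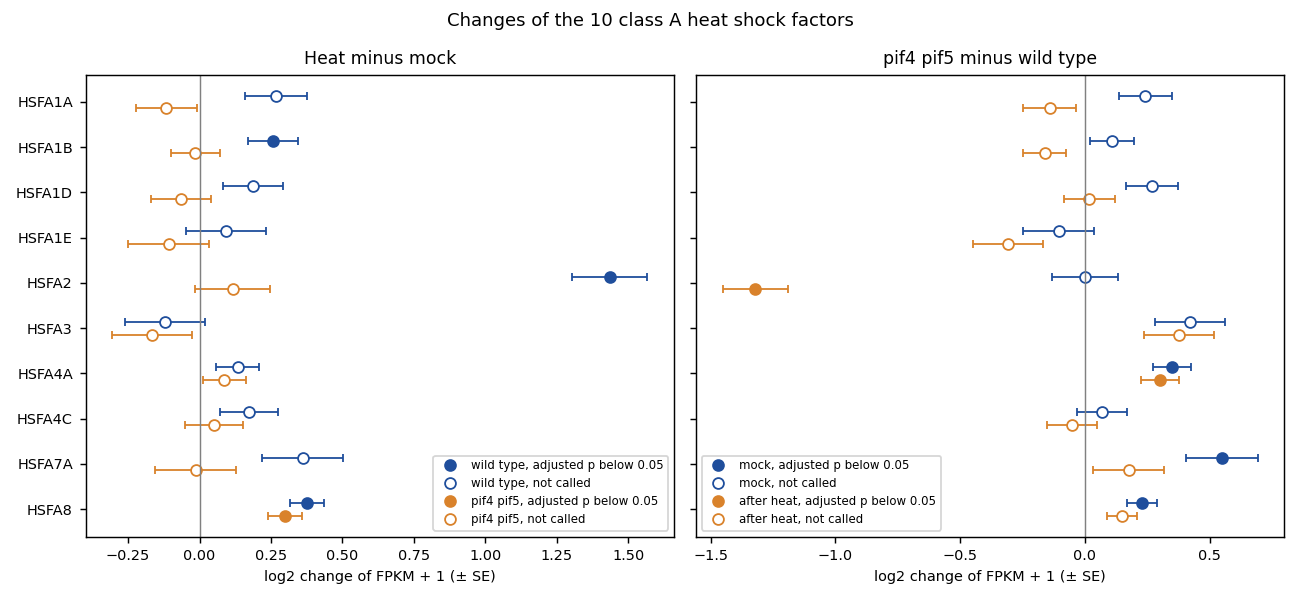
Change of each factor on the log2(FPKM + 1) scale with its standard error, heat minus mock in each genotype (left) and mutant minus wild type in each treatment (right); filled points have an adjusted p below 0.05. HSFA2 stands apart in wild-type heat at 1.44 and in the heated mutant against the heated wild type at -1.32, and the other 9 factors lie between -0.31 and 0.55 throughout.

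Whether the heat change itself differed between genotypes was tested as the interaction, the mutant change minus the wild-type change. HSFA2 differed by -1.32 ± 0.19 (adjusted p = 0.00025), and it was the 1 factor of 10 called, where 31.9% of all genes were called (10.3% higher and 21.6% lower). It passed in all 15 alternatives in which it was tested, with values from -1.97 to -1.19. HSFA1A (-0.38 ± 0.15, adjusted p = 0.073), HSFA7A (-0.37 ± 0.20, adjusted p = 0.18) and HSFA1B (-0.27 ± 0.12, adjusted p = 0.11) came next and were not called. HSFA8, which rose in both genotypes, had an interaction of -0.08 ± 0.08 (adjusted p = 0.52; 95% interval -0.26 to 0.11). All 10 interaction values were negative on the deposited scale, 7 of 10 after median-of-ratios scaling and 6 of 10 after quantile scaling; the median of all genes was itself -0.10 on the deposited scale.

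Heated mutant leaves were then set against heated wild-type leaves. HSFA2, at 4.21 and 4.03 FPKM in the wild type and 0.948 and 1.16 FPKM in the mutant, was lower by -1.32 ± 0.13 on the log2 scale (adjusted p = 1.2e-05), a ratio of means of 0.256. HSFA4A, the activator linked to hydrogen peroxide, had 19.7 and 18.6 FPKM in the heated wild type and 25.5 and 22.3 FPKM in the heated mutant. It was higher in the mutant by 0.30 ± 0.08 (adjusted p = 0.011), but at 0.21 with an adjusted p of 0.12 without replicate 1 of mutant heat and at 0.26 with 0.080 without replicate 2 of wild-type heat (0.0038 to 0.12 over all alternatives). These 2 were the calls among the 10, 1 higher and 1 lower, where 28.6% of all genes were called in either direction. The libraries did not overlap for 9 of the 10, 4 higher and 5 lower in the mutant, where 65.3% of all genes did not overlap. HSFA3, which heat memory requires together with HSFA2, had 2.12 and 3.04 FPKM in the heated wild type and 3.82 and 3.41 FPKM in the heated mutant (0.38 ± 0.14, adjusted p = 0.062). It overlaps AT5G03710 on the opposite strand, with the same limit as for HSFA1B. HSFA8 had a value of 0.15 ± 0.06 (adjusted p = 0.082), and HSFA1E, at 3.49 and 2.52 FPKM against 2.25 and 2.18 FPKM, one of -0.31 ± 0.14 (adjusted p = 0.13).

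In mock leaves 3 of the 10 were higher in the mutant and 0 lower, against 20.7% of all genes called (13% higher and 7.69% lower). HSFA4A had 17.44 and 17.34 FPKM in the wild type and 23.53 and 21.3 FPKM in the mutant, a difference of 0.35 ± 0.08 (adjusted p = 0.0073). HSFA7A had 1.48 and 1.10 FPKM in the wild type and 2.72 and 2.01 FPKM in the mutant, a difference of 0.55 ± 0.14 (adjusted p = 0.018). HSFA8 had 29.0 and 31.2 FPKM in the wild type and 36.5 and 34.3 FPKM in the mutant, a difference of 0.23 ± 0.06 (adjusted p = 0.019). The HSFA8 call was lost after median-of-ratios scaling (0.17, adjusted p = 0.065) and quantile scaling (0.18, adjusted p = 0.062). It was also lost without an intensity trend (adjusted p = 0.07), and the HSFA7A call was lost without the filter on low values (adjusted p = 0.054). All 3 depended on replicate 1 of mutant mock: without it the adjusted p was 0.058 for HSFA4A, 0.14 for HSFA7A and 0.11 for HSFA8, and 0 of the 10 were called. The adjusted p over all alternatives ran from 0.00095 to 0.058, from 0.015 to 0.14 and from 0.0092 to 0.14. HSFA3 lay just short of the threshold, at 3.06 and 2.67 FPKM against 3.86 and 4.51 FPKM (0.42 ± 0.14, adjusted p = 0.051). HSFA2 showed no called difference between the mock groups (-0.00 ± 0.13, 95% interval -0.29 to 0.29), so unheated leaves of the genotypes did not differ detectably in it at 32 reads or more per library. The libraries of the genotypes did not overlap for 7 of the 10, all higher in the mutant, where 62% of all genes did not overlap. The mock and heat groups each enter several of these comparisons, so the 5 sets of values are not independent of each other.

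Among the 5 other class A genes only HSFA5, known to restrain HSFA4 factors, was expressed enough to be tested. It had 6.42 and 6.07 FPKM in wild-type mock and 7.70 and 8.07 FPKM after heat, a rise of 0.29 ± 0.09 (adjusted p = 0.024); the mutant change was 0.08 ± 0.09 (adjusted p = 0.58) and the interaction -0.21 ± 0.13 (adjusted p = 0.23). HSFA6A and HSFA6B did not exceed 0.101 FPKM in any library. HSFA7B, a heat-induced relative of HSFA7A, and HSFA9, a seed factor, were listed at 0 in all 8 libraries. A listed 0 may be a failed estimate, since 19.4% of protein-coding rows, among them AT1G79850 for a plastid ribosomal protein, were listed at 0 throughout.

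Of the 6 class B and C genes, HSFB1, a repressor induced by heat, went from 9.83 and 10.5 FPKM to 40.1 and 39.1 FPKM with heat in the wild type, and stood at 15.3 and 15.2 FPKM without and 17.38 and 17.57 FPKM with heat in the mutant. It rose by 1.86 ± 0.06 in the wild type (adjusted p = 5.1e-10), its mutant change of 0.19 ± 0.06 was not called (adjusted p = 0.056), and the interaction was -1.68 ± 0.09 (adjusted p = 8.8e-08). Unlike HSFA2 it was already higher in mutant mock, by 0.54 ± 0.06 (adjusted p = 8.8e-05). HSFB2A rose in the mutant by 0.55 ± 0.09 (adjusted p = 0.0015), from a mock level below that of the wild type (-0.27 ± 0.09, adjusted p = 0.048). Its wild-type heat change of 0.21 ± 0.09 was not called (adjusted p = 0.085), and the interaction was 0.35 ± 0.12 (adjusted p = 0.049). After heat the genotypes showed no called difference in HSFB2A (0.08 ± 0.09, adjusted p = 0.53). HSFB4 fell in the wild type by 0.48 ± 0.13 on the log2 scale (adjusted p = 0.014). HSFC1 was listed at 0 throughout.

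The chaperones that hold HSFA1 inactive were described as a list of 10 genes, 5 cytosolic HSP70, 4 cytosolic HSP90 and the heat shock factor binding protein HSBP. In the wild type 5 rose after heat and 0 fell, against 21.5% and 16.9% of all genes, with a median of 0.20 against 0.02. In the mutant 1 rose and 4 fell, against 6.28% and 13.9% of all genes, with a median of -0.17 against -0.06. The mutant counts were less firm: 2 fell after median-of-ratios scaling, 2 fell and 0 rose when replicate 2 of mutant mock or either mutant heat library was left out, and 4 fell and 0 rose without replicate 1 of mutant mock. HSP70-4 (AT3G12580) had 4.82 and 4.67 FPKM in wild-type mock and 23.57 and 25.0 FPKM after heat, against 5.44 and 5.62 FPKM and 7.43 and 7.04 FPKM in the mutant. It rose in both genotypes, by 2.14 ± 0.08 and 0.33 ± 0.08 (adjusted p = 1.5e-09 and 0.015). HSP70B and HSP90.1 rose in the wild type by 1.82 ± 0.14 and 0.87 ± 0.08, and had mutant values of -0.16 and -0.13 that were not called. The 4 that fell in the mutant, HSC70-1, AT3G09440, HSP90.2 and HSP90.3, are constitutive copies, and near-identical sequences within HSP90.2 to HSP90.4 and between HSC70-1 and HSP70-2 leave their separate values uncertain. Of these, AT3G09440 was also among the 5 that rose in the wild type (0.34 ± 0.05, adjusted p = 0.00035). In mock leaves 3 of the 10 were higher in the mutant and 0 lower, against 13% and 7.69% of all genes. These were HSP70-2 (0.87 ± 0.09, adjusted p = 2.6e-05), HSC70-1 (0.32 ± 0.06, adjusted p = 0.0032) and HSP90.1 (0.25 ± 0.08, adjusted p = 0.046). For the interaction 8 of the 10 were lower in the mutant and 0 higher, against 21.6% and 10.3% of all genes, with a median of -0.42 against -0.10. The higher mock levels of HSP70-2, HSC70-1 and HSP90.1 in the mutant enter their interaction values. The count of 8 was 5 after median-of-ratios scaling and 7 after quantile scaling.

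Of 5 regulators around the HSFA1 pathway, 3 rose in the wild type, where 21.5% of all genes rose: DREB2A, an activator of HSFA3, DREB2C and the coactivator MBF1C, although the count was 2 after median-of-ratios or quantile scaling (MBF1C had an adjusted p of 0.047). DREB2A went from 7.65 and 9.04 FPKM to 13.3 and 14.1 FPKM with heat in the wild type, and from 12.0 and 10.9 FPKM to 23.9 and 18.9 FPKM in the mutant. It was the regulator that rose in both genotypes (0.65 ± 0.11 and 0.84 ± 0.11, adjusted p = 0.00049 and 0.00050), while HSFA3 itself was called in neither. DREB2C rose in the wild type by 0.85 ± 0.15 (adjusted p = 0.00080), and its mutant change was not called (-0.13 ± 0.15, adjusted p = 0.58). The interaction was -0.98 ± 0.22 (adjusted p = 0.0049). DREB2C was already higher in mutant mock, by 0.58 ± 0.15 (adjusted p = 0.019), which enters the interaction. After heat the genotypes showed no called difference in it (-0.40 ± 0.15, adjusted p = 0.069).

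Genes known as targets of HSFA1 and HSFA2 were described last among the pathway lists. Of 17 listed, 15 were tested, and 7 of these passed the filter only because of the 2 heated wild-type libraries, so they had to differ there. Of the 8 others, 6 rose and 1 fell in the wild type, against 21.5% and 16.9% of all genes (median 0.995 against 0.02). In the mutant 4 rose and 2 fell, against 6.28% and 13.9% (median 0.37 against -0.06). HSA32, HSP18.2 and AT1G53540, which rose in both genotypes, stayed below 1 FPKM in every mock library. They were among the 8 only through the heated mutant libraries, so they had to be higher there. The counts and medians for heat are therefore not free of the filter. The interaction called 6 lower and 1 higher in the mutant, against 21.6% and 10.3%. The wild-type counts were the same without any 1 of the 8 libraries; in the mutant 3 rose and 0 fell without replicate 2 of mutant heat, and 1 fell without replicate 1 of mutant heat or either mutant mock library. The 6 lower in the interaction were 4 after quantile scaling, 5 after median-of-ratios scaling and 4 without the filter on low values. That count also changed when single libraries were left out. The cytosolic small chaperone HSP18.2 had 0.204 and 0.246 FPKM in wild-type mock and 12.7 and 16.1 FPKM after heat, against 0.415 and 0.374 FPKM and 2.39 and 2.49 FPKM in the mutant. It rose in both genotypes, by 3.64 ± 0.13 and 1.302 ± 0.13 (adjusted p = 9.2e-10 and 9.2e-05), with an interaction of -2.34 ± 0.19 (adjusted p = 2.7e-06). AT1G53540, annotated as an HSP20-like chaperone, likewise reached 24.2 and 22.2 FPKM in heated wild type and 2.03 and 1.91 FPKM in heated mutant.

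Both galactinol synthase genes on that list went opposite ways. GOLS1 rose in both genotypes, by 1.58 ± 0.09 and 0.81 ± 0.09, whereas GOLS2 fell in both, by 0.63 ± 0.07 and 0.26 ± 0.07 on the log2 scale, and stood at 30.8 and 32.3 FPKM in wild-type mock against 6.70 and 6.59 FPKM in mutant mock. Among the 7 that reached the filter through heated wild type, HSP22 was listed at 0 in all libraries except 2.85 and 4.61 FPKM in heated wild type, and the ascorbate peroxidase APX2 had 1.32 and 1.27 FPKM there and at most 0.0659 FPKM elsewhere. HSP17.6A had 8.23 and 9.14 FPKM there and at most 0.466 FPKM elsewhere.

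**Figure D4:**
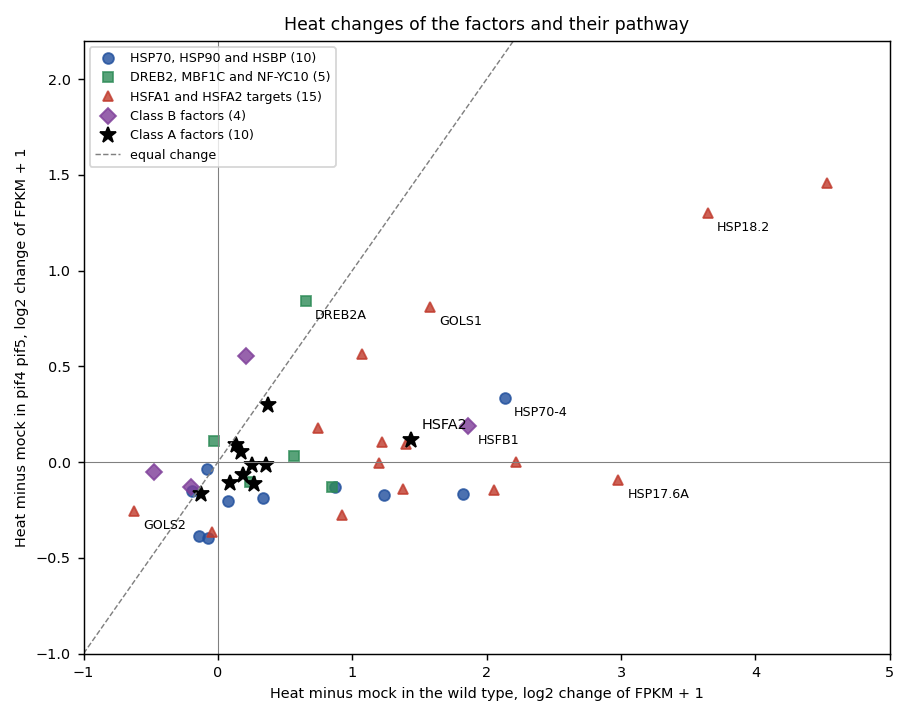
Heat change in the wild type (horizontal) against heat change in pif4 pif5 (vertical), both in log2(FPKM + 1), for the 10 class A factors (stars) and the tested genes of the pathway lists; the dashed line marks equal change and the 2 axes have different scales. HSFA2 lies at 1.44 and 0.12, beside HSFB1 at 1.86 and 0.19, and the other stars gather near the origin.

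Genes linked to HSFA4A by earlier work were compared with it, since HSFA4A was higher in the mutant in both treatments. ZAT12, a zinc finger gene of the oxidative response, went from 7.90 and 7.18 FPKM to 13.0 and 14.8 FPKM with heat in the wild type, and from 17.36 and 17.59 FPKM to 28.5 and 24.4 FPKM in the mutant. It was higher in the mutant by 1.12 ± 0.09 in mock and 0.88 ± 0.09 after heat (adjusted p = 3.7e-06 and 1.3e-05). ZAT6 was higher in the mutant by 0.39 ± 0.09 in mock and 1.55 ± 0.09 after heat (adjusted p = 0.0087 and 8.1e-08). Its heat change was -0.41 ± 0.09 for wild-type leaves (adjusted p = 0.003) but 0.75 ± 0.09 for mutant leaves (adjusted p = 0.00025). The interaction of ZAT6 was 1.16 ± 0.12 (adjusted p = 3.2e-05), whereas that of HSFA4A was -0.05 ± 0.11 and not called (adjusted p = 0.78). The cytosolic ascorbate peroxidase APX1 was higher in mutant mock by 0.37 ± 0.04 (adjusted p = 5.6e-05) and had a value of -0.05 ± 0.04 after heat (adjusted p = 0.37). WRKY30 passed the filter only through heated wild type, with 1.56 and 1.32 FPKM there and at most 0.745 FPKM elsewhere, so it had to differ there.

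Among 1693 tested genes outside the 10 whose log2 values ranged over at least 1 unit, those closest in pattern to HSFA2 over the 8 libraries were AT1G10585 (Pearson r = 0.996), FAH1, PES2, AT1G21400 and PHT3;2 (r = 0.995 each). FAH1, a cytochrome P450 of phenylpropanoid synthesis, averaged 38.8 FPKM without and 112 with heat in the wild type, and 36.5 and 40.6 FPKM in the mutant. PES2, a phytyl ester synthase, averaged 3.65, 20.3, 4.31 and 4.57 FPKM in the same order. These correlations describe 8 libraries of 4 groups that share their scaling. Closest to HSFA8 were AT1G65486 (r = 0.969), AT1G25400 (r = 0.967), HIR2 (r = 0.965), DREB2A (r = 0.962) and AT1G21550 (r = 0.961). HIR2, a hypersensitive induced reaction protein, averaged 77.4 FPKM without and 137 with heat in the wild type, and 123 and 160 FPKM in the mutant, the same order of groups as HSFA8.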

How the data were processed

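Directional RNA-seq libraries were made from total RNA, per the labels. What the authors deposited is a single table of FPKM, with 34354 rows and 8 libraries. TopHat, TopHat2, edgeR and the build TAIR10 are named with neither versions nor roles, per the submitters' processing notes; for the counting program and how it used strand, nothing is given in the sources used here. FPKM scale with library totals, so abundant genes that move shift all others. Each library's depth was read from the FPKM steps at annotated gene lengths, and whole reads were then found for 23543 of 23543 rows above 0 (within 0.01 of a whole number). Of these rows, 13108 were whole at an annotated length. For the other 10435, a length was searched that gave whole numbers, so full recovery was partly built in. HSFA1B, HSFA1D, HSFA2, HSFA3 and HSFA4C are among these, and their read counts rest on that search.

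Sample titles gave the groups. As FPKM are no counts, limma 3.58.1 in R 4.3.3 was run on log2(FPKM + 1) (eBayes with an intensity trend, two-sided), in a model of 4 group means over 8 libraries with 4 residual degrees of freedom; the 16831 genes that reached 1 FPKM in 2 or more libraries were kept. Benjamini-Hochberg adjusted p-values cover all genes tested. limma-voom on the recovered reads, an alternative, called 6685 genes for heat in the wild type, against 6468 here. The code was tested on simulated data. Replicate numbers were not taken as pairs, and a shared replicate effect was not excluded. All 10 factors and 5 other class A genes are named whatever they did. For each pathway list, the planned rule was to name up to 4 called genes with the smallest p in a comparison. It was not followed in full: ROF1, HSP17.6II and DPB3-1 met it and are not described. Further genes were named after their values were seen. The members and lists were chosen with earlier results of these data known. Promoter windows came from TAIR10.1.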

Additional observations from a re-analysis of the deposited data

Results flagged for a closer look

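The heat response of HSFA2 differed between the genotypes. Its change in pif4 pif5 minus its change in the wild type was -1.32 on the log2(FPKM + 1) scale, and the test of that difference, the interaction in limma, gave an adjusted p of 0.00025 (0.00034 to 0.0022 over the alternatives). The 2 heated wild-type libraries lay above all 6 others, and the gene was covered by 32 to 152 reads per library.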

How the results depend on the processing

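Over 17 alternatives, 783 results of the 10 factors kept their side of the threshold, 19 lost and 13 gained a call. Among called values 0 changed sign; values that were not called changed sign 40 times. HSFA2 held its calls wherever it was tested, and the filter of 5 FPKM in 2 libraries left 5 factors without it, so 0 were then lower in the heated mutant and 0 in the interaction. With limma-voom 5 factors were higher in mutant mock and 2 in the heated mutant; the latter count was 3 after median-of-ratios scaling and 3 after quantile scaling, which added HSFA3 and HSFA8. Without an intensity trend 2 were lower in the interaction, HSFA2 and HSFA1A. The cause was not tested. Leaving out 1 library at a time gave 2 to 3 factors higher for heat in the wild type (4592 to 6426 genes in all), 0 to 1 for heat in the mutant (1451 to 3510), 0 to 4 for the mutant in mock (1780 to 3243), 0 to 1 higher and 1 to 1 lower after heat (2972 to 4961) and 1 to 1 lower in the interaction (3926 to 5194). The share of all calls that were higher was 56.1% for heat in the wild type (quantile 42.9%), 31.1% in the mutant (median-of-ratios 59.6%, quantile 48.0%), 62.8% for the mutant in mock (42.2%, 47.1%), 38.5% after heat (48.4%, 54.8%) and 32.2% in the interaction (49.2%, 52.4%). With the replicate number as a block the counts of factors were the same and 6725, 3713, 3878, 5141 and 5645 genes were called in the 5 comparisons; deviations of same-numbered libraries correlated by -0.028 to 0.186, so the numbers were not taken as pairs. The fit on only the compared groups was not run for the interaction. At 32 reads, small changes of HSFA2 and HSFA7A are not detectable.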
